A study of Mus musculus with 12 samples.

Results

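A set of 10 genes that make, break down or sense prostaglandins was followed here, 10 of the 55385 gene identifiers in the deposited tables. They were chosen by name: the phospholipase Pla2g4a, the cyclooxygenases Ptgs1 and Ptgs2, the terminal synthases Ptges, Ptgis and Ptgds, the degrading enzyme Hpgd, and the receptors Ptger2, Ptger4 and Ptgfr. All 10 were found in the tables and passed the filter on low counts, among 15283 genes tested. RNA sequencing covered 12 libraries of C57BL/6 mouse cells, 4 of primary cultured normal endometrium (called normal below) and 4 each of mECC and HPmECC, lines of endometrial cancer cells. Titles mark the groups B6, DM and WT in that order and do not explain the codes. Overexpression of Myc in part of the cancer lines is mentioned in the series' design, and no label ties it to mECC or HPmECC. The labels give neither the animals' age, nor culture conditions, nor whether replicates are independent cultures or animals. All p-values are therefore relative to library-to-library spread, part or all of which may be technical.

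Prostaglandins are lipid signals made from arachidonic acid. A cytosolic phospholipase (Pla2g4a) frees the acid from membranes, a cyclooxygenase (Ptgs1, largely constitutive, or Ptgs2, the inducible form) turns it into prostaglandin H2, and a terminal synthase sets the product. Ptges makes prostaglandin E2, Ptgis makes prostacyclin and Ptgds makes prostaglandin D2, while Hpgd inactivates E and F prostaglandins. In the uterus these signals take part in implantation, stromal decidualization, menstruation or estrous change, and contraction at birth, and PTGS2 is a well-known enzyme in carcinomas.

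Library totals ran from 16332060 to 26873582 estimated counts. Levels are given as CPM, read counts scaled to library size with TMM factors, with SD over 4 libraries. Where different genes are compared, levels are given as TPM, which is also scaled per transcript length. A gene was called higher or lower when its edgeR adjusted p over all 15283 genes was below 0.05. Such calls were common: 86.3% of all genes differed between mECC and normal cells, 86.4% between HPmECC and normal cells, and 68.3% between the lines. Scaling by library totals in place of TMM moved the median log2 change of all genes from -0.018 to 0.221 for mECC against normal cells and from 0.001 to 0.197 for HPmECC, and raised the share of calls that were higher from 48.8% to 59.1% and from 49.8% to 58.0%. The direction and call of each of the 10 genes was the same under both scalings in all 3 comparisons. Epithelial markers (11 genes, among them Epcam, Cdh1 and Krt8) summed to 9503 to 9845 CPM in normal libraries, 1631 to 1666 in mECC and 319 to 335 in HPmECC, where Epcam stood at 0.34 CPM. All 11 were lower in HPmECC than in mECC. The 7 Müllerian and uterine markers summed to 484 to 519, 262 to 282 and 149 to 172 CPM in the same order, a fall carried largely by Pax8 (345, 31.9 and 1.75 CPM). They moved both ways: 3 were higher and 4 lower in mECC, and 2 higher and 4 lower in HPmECC. Pgr, the progesterone receptor gene, was 4.32-fold higher in mECC and 3.06-fold in HPmECC, Emx2 was higher in both lines, and Foxa2 was 9.68-fold higher in mECC. The 9 fibroblast markers summed to 2184 to 2720, 7553 to 8376 and 8680 to 9362 CPM, a sum made up mostly of Col1a1, Col3a1 and Vim. Of the 9, 5 were higher and 4 lower in each line, the lower ones being Col1a2 (9.12-fold lower in mECC), Thy1 (0 counts in mECC), Dcn (4.24-fold lower in mECC) and Lum. HPmECC thus held few epithelial marker transcripts for cells labelled as endometrial cancer.

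Most of the 10 genes were lower in both lines than in normal cells, and they did not fall evenly. The inducible cyclooxygenase, the prostacyclin synthase, the degrading enzyme and the prostaglandin E2 receptors lost most of their transcripts, while the phospholipase and the constitutive cyclooxygenase differed from normal cells by at most 2.33-fold. Ptgds and Ptgfr, nearly absent from normal cells, were present in the lines. Against normal cells, 3 genes were higher and 7 lower in mECC, where 42.1% of all genes tested were higher and 44.2% lower. In HPmECC 2 were higher and 8 lower, against 43.0% and 43.3% of all genes. At least 2-fold changes were called for 8 of the 10 in mECC and for 9 in HPmECC, against 41.2% and 41.5% of all genes. The median log2 change of the 10 was -2.88 in mECC and -2.26 in HPmECC, beside -0.018 and 0.001 over all genes. These comparisons share the normal libraries, and the genes were named with earlier results of these data known, so the counts are a description. In bulk RNA, fewer cells of a type and less RNA per cell cannot be told apart.

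**Figure D1:**
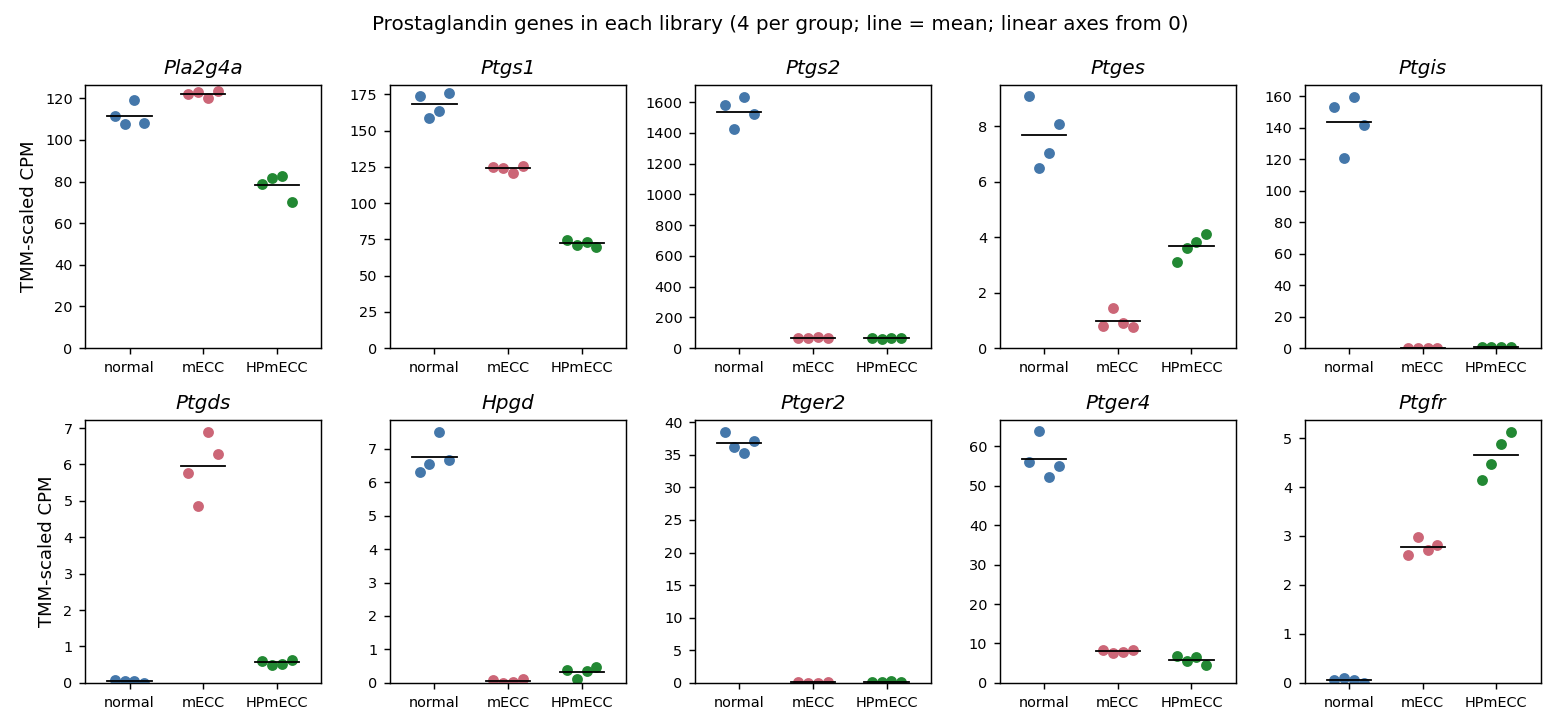
TMM-scaled CPM of each of the 10 genes in each of 4 libraries per group, on linear axes from 0; the line is the group mean. Ptgs2, Ptgis, Hpgd, Ptger2 and Ptger4 stand high in normal cells and low in both lines, whereas Ptgds is highest in mECC and Ptgfr in HPmECC.

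Pla2g4a, which releases arachidonic acid (ENSMUSG00000056220, chromosome 1 at 149829618 to 149961290 of GRCm38, minus strand), was the most even of the 10 genes on the count scale. Its level was 111, 108, 119 and 108 CPM in the normal libraries, 122, 123, 120 and 124 in mECC and 78.9, 81.5, 82.8 and 70.1 in HPmECC. All mECC libraries lay just above all normal libraries, and all HPmECC libraries lay below both. The rise in mECC was small, 1.10-fold (log2 change 0.13 with SE 0.04, edgeR adjusted p = 0.00936), and the level in HPmECC was 1.43-fold below normal cells (-0.51 with SE 0.05, edgeR adjusted p = 3.70e-09) and 1.56-fold below mECC (-0.64 with SE 0.04, edgeR adjusted p = 2.80e-10). With library totals the log2 change in mECC was 0.37, and in HPmECC -0.32 against normal cells.

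The cyclooxygenases parted. Ptgs2 (ENSMUSG00000032487, chromosome 1 at 150100031 to 150108227, plus strand) was the most abundant of the 10 genes in normal cells and lost nearly all of that level in both lines. It stood at 1578, 1422, 1633 and 1522 CPM in the normal libraries, at 65.0, 66.5, 69.1 and 66.0 CPM in mECC, and at 65.7, 62.1, 68.4 and 64.1 CPM in HPmECC. No cancer library came near a normal one, and the lines overlapped each other. Ptgs2 was 23.1-fold lower in mECC (log2 change -4.53 with SE 0.04, edgeR adjusted p = 1.72e-23) and 23.7-fold lower in HPmECC (-4.57 with SE 0.04, edgeR adjusted p = 7.98e-24). Between the lines, where 68.3% of all genes were called, Ptgs2 was not (log2 change -0.04, edgeR adjusted p = 0.446). The 95% interval of that ratio, 0.916 to 1.04, bounds the difference between the lines on both sides.

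Ptgs1 (ENSMUSG00000047250, chromosome 2 at 36230426 to 36252272, plus strand) stepped down from group to group. Its libraries held 174, 159, 164 and 176 CPM in normal cells, 125, 124, 121 and 125 in mECC, and 74.4, 71.3, 73.2 and 70.0 in HPmECC. The 3 groups did not overlap. It was 1.36-fold lower in mECC (log2 change -0.44 with SE 0.03, edgeR adjusted p = 3.57e-10), 2.33-fold lower in HPmECC (-1.22 with SE 0.04, edgeR adjusted p = 8.90e-17), and 1.72-fold lower in HPmECC than in mECC (-0.78, edgeR adjusted p = 5.52e-13). Because Ptgs2 fell much further than Ptgs1, the order of the pair turned. Per transcript length, Ptgs2 was 4.65 to 5.46 times the level of Ptgs1 in normal libraries, 0.285 to 0.323 times in mECC and 0.487 to 0.548 times in HPmECC, with no overlap between groups.

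**Figure D2:**
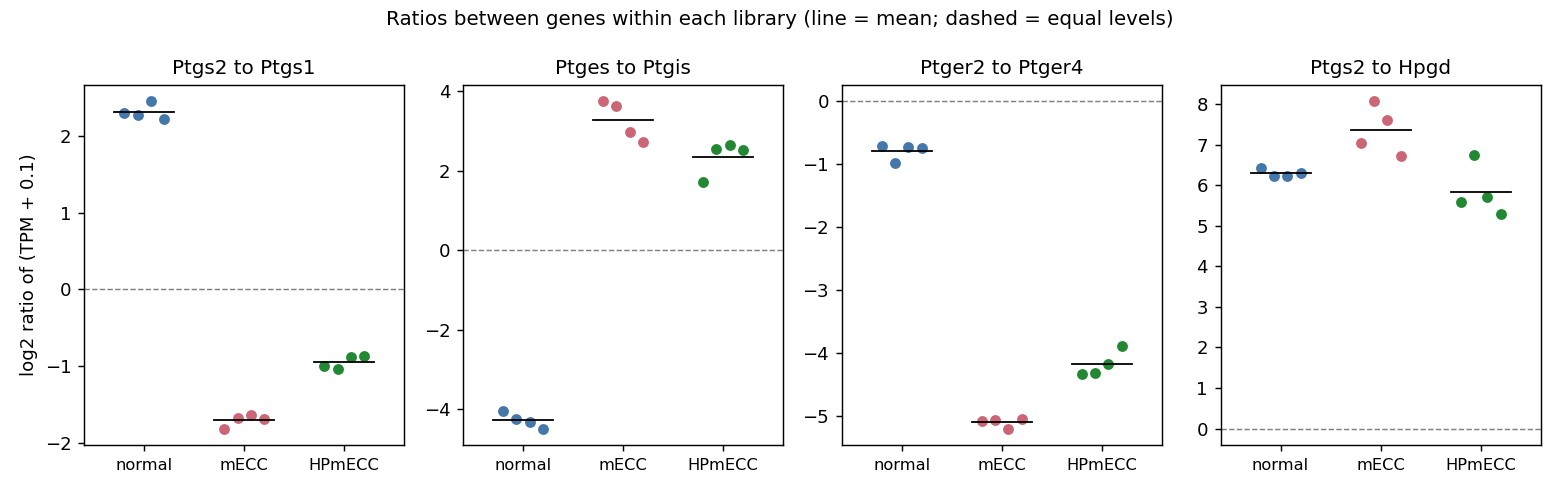
Log2 ratio of (TPM + 0.1) for 4 pairs of genes in each library, with the mean as a line and equal levels dashed. The Ptgs2 to Ptgs1 ratio is above 0 in all 4 normal libraries and below 0 in all 8 cancer libraries, and the Ptges to Ptgis ratio changes sign the other way.

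The bases before the start of this pair are shown because both genes encode the same activity and fell to different degrees. RefSeq gave a promoter window for 9 of the 10 genes (GRCm38.p6), and the 250 bases before each start were searched on both strands for the E-box CACGTG (the core of sites bound by Myc and Max), the cAMP response element TGACGTCA, the TATA box TATAAA, the AP-1 site in either form, TGACTCA and its variant TGAGTCA, and the kappa B motif. These are on the plus strand, chr2:36230176-36230425 for Ptgs1 and chr1:150099781-150100030 for Ptgs2, with motif matches in capitals.
Ptgs1: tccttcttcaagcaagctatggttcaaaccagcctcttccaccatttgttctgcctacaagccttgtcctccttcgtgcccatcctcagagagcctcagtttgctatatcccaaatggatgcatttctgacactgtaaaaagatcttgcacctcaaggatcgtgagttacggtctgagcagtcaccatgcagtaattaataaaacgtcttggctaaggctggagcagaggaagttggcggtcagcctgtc
Ptgs2: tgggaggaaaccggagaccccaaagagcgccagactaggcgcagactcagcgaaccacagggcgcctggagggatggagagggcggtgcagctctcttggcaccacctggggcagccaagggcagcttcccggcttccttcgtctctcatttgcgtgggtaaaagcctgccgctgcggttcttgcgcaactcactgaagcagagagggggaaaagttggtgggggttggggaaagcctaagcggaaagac
Neither run holds any of these letters. The Ptgs2 window is 61.6% G and C with 13 CpG sites and that of Ptgs1 48.0% with 5, beside medians of 52.4% and 6 over 32851 windows. An E-box lies 17 bases after the annotated start of Ptgs2, in the stretch chr1:150100035-150100064, where the E-box is in capitals.
Ptgs2 after the start: tcaccactacgtCACGTGgagtccgcttta
In the full 300 bases, 7.15% of all windows hold this E-box and 6.02% in the 250 bases before the start. A match describes letters and not binding, and the search after the start was added once the first search had been seen. Before and after refer to the annotated start. The main start in these cells was not determined and may differ, so the E-box is not shown to lie in the transcript.

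Among the terminal synthases, Ptgis, which makes prostacyclin, was lost almost completely. Ptgis (ENSMUSG00000017969, chromosome 2 at 167191805 to 167240604, minus strand) stood at 153, 121, 159 and 141 CPM in normal libraries. In mECC the 4 libraries held 0, 3, 0 and 2 counts, and in HPmECC 18, 14, 8 and 21 counts, or 0.42 to 0.77 CPM. The groups did not overlap. With 5 counts in all, mECC lay 2910-fold below normal cells by the ratio of summed counts (95% counting interval 1247 to 8965; fitted log2 change -11.36, edgeR adjusted p = 2.86e-20). HPmECC lay 228-fold below (log2 change -7.83 with SE 0.14, edgeR adjusted p = 4.85e-20), and 12.7-fold above mECC by summed counts (counting interval 5.17 to 40.7; log2 change 3.53, edgeR adjusted p = 2.10e-04). Without mECC replicate 2, which held 3 of the 5 counts, the fitted values were -12.11 against normal cells and 4.28 between the lines.

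Ptges, the inducible synthase of prostaglandin E2 (ENSMUSG00000050737, chromosome 2 at 30889471 to 30929863, minus strand), fell in both lines and least in HPmECC. Its libraries held 9.07, 6.49, 7.05 and 8.08 CPM in normal cells, 0.81, 1.45, 0.91 and 0.77 in mECC and 3.11, 3.61, 3.83 and 4.13 in HPmECC. HPmECC lay between the other groups with no overlap. The gene was 7.63-fold lower in mECC (log2 change -2.93 with SE 0.18, edgeR adjusted p = 1.21e-11), 2.08-fold lower in HPmECC (-1.06 with SE 0.15, edgeR adjusted p = 2.05e-06) and 3.67-fold higher in HPmECC than in mECC (1.88 with SE 0.19, edgeR adjusted p = 6.25e-08). Limma on log2(TPM + 0.1) gave -2.09 for mECC and 1.28 between the lines, both smaller. With 0.1 TPM added to both genes, Ptges per length within a library was 0.0446 to 0.0608 times Ptgis in normal cells. It was 6.58 to 13.4 times Ptgis in mECC and 3.28 to 6.20 times in HPmECC. The size of these ratios in the lines depends on the added 0.1 TPM. Ptgis itself was at 0 to 0.1 TPM in mECC and 0.39 to 0.71 TPM in HPmECC. The order of the lines rests on that addition as well. With 1 TPM added, the mean log2 ratio was 1.13 in mECC and 1.43 in HPmECC.

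Ptgds, the lipocalin-type prostaglandin D synthase (ENSMUSG00000015090, chromosome 2 at 25466709 to 25470046, minus strand), went the other way. Normal libraries held 1, 1, 1 and 0 counts. In mECC the level was 5.77, 4.87, 6.89 and 6.30 CPM, and in HPmECC 0.60, 0.50, 0.52 and 0.63 CPM. All mECC libraries stood far above the rest, and the HPmECC libraries above the normal ones. By summed counts mECC was 147-fold above normal cells (counting interval 49.96 to 713; edgeR adjusted p = 8.64e-14) and HPmECC 13.9-fold above (4.51 to 69.4; edgeR adjusted p = 1.61e-06). HPmECC was 10.5-fold below mECC (log2 change -3.39 with SE 0.18, edgeR adjusted p = 8.82e-12). Its RefSeq window holds an AP-1 match 35 bases before the start, as do 4.46% of all windows. The other match before a start was a TATA box 200 bases before that of the second Pla2g4a window (12.4% of all windows). After the RefSeq starts, Hpgd held a TATA box at 5 bases, beside the E-box of Ptgs2 (TATA box in 13.6% of the full windows). That TATA box, chr8:56294556-56294561, lies before the start of the Hpgd coordinates printed below (56294585). The AP-1 match of Ptgds, chr2:25469778-25469784, lies inside the Ptgds coordinates printed above. Its place before or after the start thus depends on the annotation for both genes.

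Hpgd, the dehydrogenase that starts prostaglandin breakdown (ENSMUSG00000031613, chromosome 8 at 56294585 to 56321043, plus strand), stood at 6.30, 6.55, 7.49 and 6.66 CPM in normal libraries. The mECC libraries held 2, 0, 1 and 3 counts and the HPmECC libraries 9, 3, 7 and 13. The lines overlapped each other and neither reached the normal libraries. Hpgd was 115-fold lower in mECC by summed counts (counting interval 52.4 to 315; edgeR adjusted p = 8.73e-13) and 20.2-fold lower in HPmECC (log2 change -4.34 with SE 0.26, edgeR adjusted p = 1.06e-11). HPmECC lay 5.57-fold above mECC by summed counts (counting interval 2.30 to 16.3; edgeR adjusted p = 0.00138). With 6 and 32 counts in the lines, Hpgd passed the filter on low counts only through the normal libraries, and a fit of the 2 lines alone did not test it. The enzyme that makes prostaglandin H2 and the one that removes its products were thus both lower, and the mean log2 ratio of Ptgs2 to Hpgd per length was 6.30 ± 0.10 in normal cells, against 7.36 ± 0.60 in mECC and 5.84 ± 0.63 in HPmECC, with values of HPmECC on both sides of the normal ones. With 1 TPM added in place of 0.1 the means were 6.12, 4.69 and 4.25, so the place of mECC against normal cells turned with that choice.

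The receptors for prostaglandin E2 that raise cyclic AMP were both lower in the lines, Ptger2 nearly to nothing. Ptger2, which encodes EP2 (ENSMUSG00000037759, chromosome 14 at 44988195 to 45003820, plus strand), stood at 38.5, 36.1, 35.3 and 37.1 CPM in normal libraries. It had 2, 1, 1 and 2 counts in mECC and 3, 3, 4 and 3 counts in HPmECC, which left every cancer library far below every normal one. By summed counts it was 624-fold lower in mECC (counting interval 286 to 1701; edgeR adjusted p = 6.95e-21) and 276-fold lower in HPmECC (161 to 518; edgeR adjusted p = 9.32e-21). Between the lines the ratio was 2.26 with a counting interval of 0.803 to 7.26, and the difference was not called (edgeR adjusted p = 0.116), although limma on log2(TPM + 0.1) called it (adjusted p = 0.0230).

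Ptger4, which encodes EP4 (ENSMUSG00000039942, chromosome 15 at 5206661 to 5244187, minus strand), kept a measurable level. Normal libraries held 56.1, 63.8, 52.3 and 55.1 CPM, mECC 8.38, 7.67, 7.90 and 8.30, and HPmECC 6.74, 5.54, 6.67 and 4.61. The 3 groups did not overlap. It was 7.06-fold lower in mECC (log2 change -2.82 with SE 0.08, edgeR adjusted p = 1.45e-16), 9.78-fold lower in HPmECC (-3.29 with SE 0.09, edgeR adjusted p = 3.35e-17) and 1.39-fold lower in HPmECC than in mECC (-0.47 with SE 0.11, edgeR adjusted p = 8.45e-04). Per length, Ptger2 was 0.507 to 0.611 times Ptger4 in normal libraries. Ptger4 thus already held most of the transcripts of the pair there. Its part was larger still in mECC and HPmECC, with ratios of Ptger2 to Ptger4 of 0.0272 to 0.0301 and 0.0495 to 0.0677. The size of those ratios is set largely by the 0.1 TPM added to both genes, since Ptger2 itself was at 0.02 to 0.04 TPM in mECC and 0.05 to 0.1 TPM in HPmECC. With 1 TPM added the mean log2 ratios were -2.40 and -1.92, in place of -5.10 and -4.18. The windows before the starts of this pair are shown because both genes fell while only one kept transcripts, and neither holds the letters searched (Ptger2 on the plus strand, chr14:44987861-44988110; Ptger4 on the minus strand, chr15:5244188-5244437).
Ptger2: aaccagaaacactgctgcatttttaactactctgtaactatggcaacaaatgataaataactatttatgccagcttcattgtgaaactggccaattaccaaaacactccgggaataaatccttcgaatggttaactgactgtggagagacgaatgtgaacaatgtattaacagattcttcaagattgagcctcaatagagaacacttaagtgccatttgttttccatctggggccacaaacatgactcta
Ptger4: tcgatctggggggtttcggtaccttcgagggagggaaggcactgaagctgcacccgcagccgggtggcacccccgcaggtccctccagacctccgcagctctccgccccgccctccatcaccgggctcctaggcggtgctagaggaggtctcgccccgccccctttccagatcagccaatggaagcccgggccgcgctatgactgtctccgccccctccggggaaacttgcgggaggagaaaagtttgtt
The Ptger2 window is 38.0% G and C with 3 CpG sites, and the Ptger4 window 66.8% with 19.

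Ptgfr, the receptor for prostaglandin F2 alpha, which drives contraction and luteal regression (ENSMUSG00000028036, chromosome 3 at 151796502 to 151837630, minus strand), was higher in both lines. Normal libraries had 1, 2, 1 and 0 counts, mECC 2.61, 2.98, 2.72 and 2.81 CPM, and HPmECC 4.14, 4.47, 4.88 and 5.12 CPM. The groups rose in that order without overlap. By summed counts Ptgfr was 51.5-fold higher in mECC (counting interval 19.9 to 190; edgeR adjusted p = 5.70e-12) and 86.0-fold higher in HPmECC (33.4 to 317; edgeR adjusted p = 1.98e-13). The level in HPmECC exceeded that in mECC 1.67-fold (log2 change 0.74 with SE 0.14, edgeR adjusted p = 9.06e-05). An uncharacterised transcript on the other strand, Gm43618, shares 329 exon bases with Ptgfr and counted 1 read in normal cells, against 30 in mECC and 37 in HPmECC. No strand setting is stated, so reads of the pair cannot be told apart. Ptger4 likewise shares 82 exon bases with Ttc33, which had 1082, 2112 and 2334 counts in the same order and so moved against Ptger4. A pseudogene on the other strand, Gm15937, shares 1015 exon bases with Ptger4 and had 0, 2 and 0 counts. Ptger2 shares 246 exon bases with the antisense gene Gm17173, which had 6 counts in mECC and 28 in HPmECC, as many as or more than the 6 and 13 counts of Ptger2 there, so the Ptger2 ratio between the lines is uncertain. Ptger2 also shares 144 exon bases with Gm49364, which had 12, 5 and 5 counts in normal cells, mECC and HPmECC. In the same order, Gm43621 (148 bases shared with Ptgs1) had 12, 16 and 6 counts. The transcript 1110018N20Rik (156 bases shared with Ptgis) had 2, 0 and 0.

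**Figure D3:**
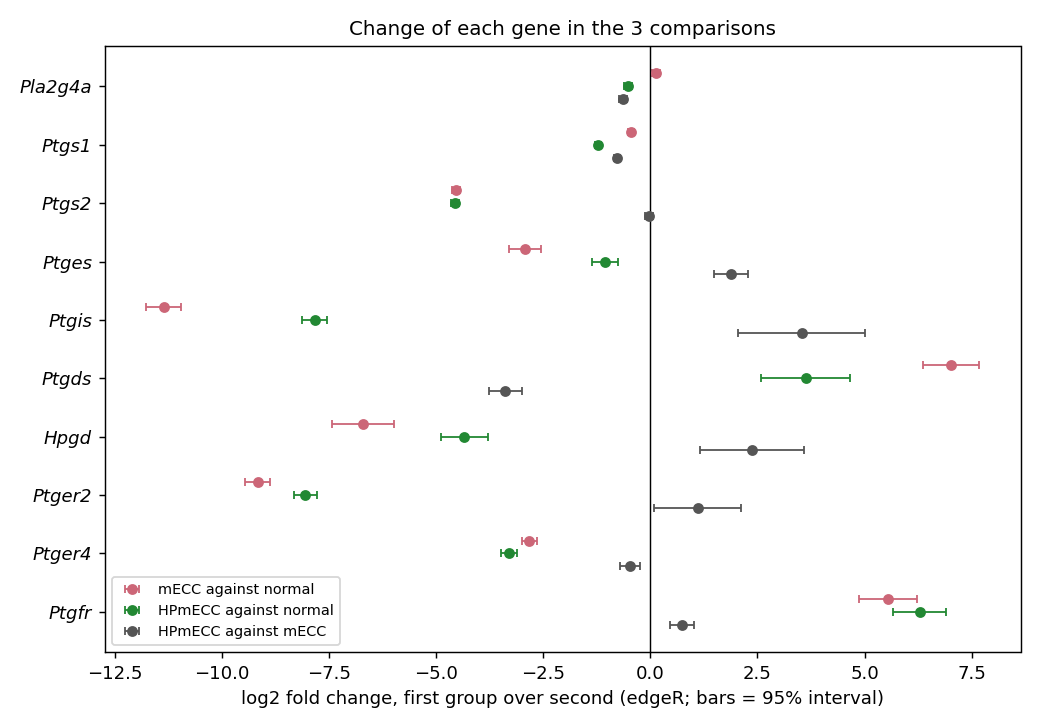
Log2 fold change of each gene in the 3 comparisons, as points with 95% intervals from edgeR. Points of both lines against normal cells lie left of 0 for Ptgs1, Ptgs2, Ptges, Ptgis, Hpgd, Ptger2 and Ptger4 and right of 0 for Ptgds and Ptgfr, while Pla2g4a has 0.13 in mECC and -0.51 in HPmECC.

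Between the lines, 4 of the 10 genes were higher in HPmECC, 4 were lower and 2 were not called, where 33.8% of all genes were higher and 34.5% lower. Ptges, Ptgis, Hpgd and Ptgfr were higher, although Ptgis and Hpgd stayed below 1 CPM in both lines. Pla2g4a, Ptgs1, Ptgds and Ptger4 were lower. Changes of at least 2-fold were called for 4 genes, Ptges, Ptgis, Ptgds and Hpgd, against 16.1% of all genes. Hpgd and Ptger2 were tested here only because of their level in normal cells: a fit of the 2 lines alone tested 8 of the 10 genes and called 3 higher and 4 lower. The median log2 change of the 10 was 0.35, beside -0.002 over all genes.

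Per transcript length, the order of the 10 genes differed between groups. In normal cells Ptgs2 led at 518 ± 29.8 TPM, and Ptgis (111 ± 13.0) and Ptgs1 (104 ± 4.85 TPM) followed with overlapping libraries. Pla2g4a, Ptger4 and Ptger2 came next at 67.3, 26.4 and 15.2 TPM, then Hpgd and Ptges, which overlapped. In mECC Ptgs1 led at 86.6 ± 3.46 TPM, above Pla2g4a (79.2 ± 0.46), Ptgs2 (26.6 ± 0.62) and Ptgds (18.6 ± 2.39). In HPmECC Pla2g4a (48.4 ± 3.92) and Ptgs1 (47.9 ± 2.48 TPM) overlapped at the top, Ptgs2 stood at 24.8 ± 1.06, and none of the other 7 genes exceeded 4.51 TPM in any library.

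**Figure D4:**
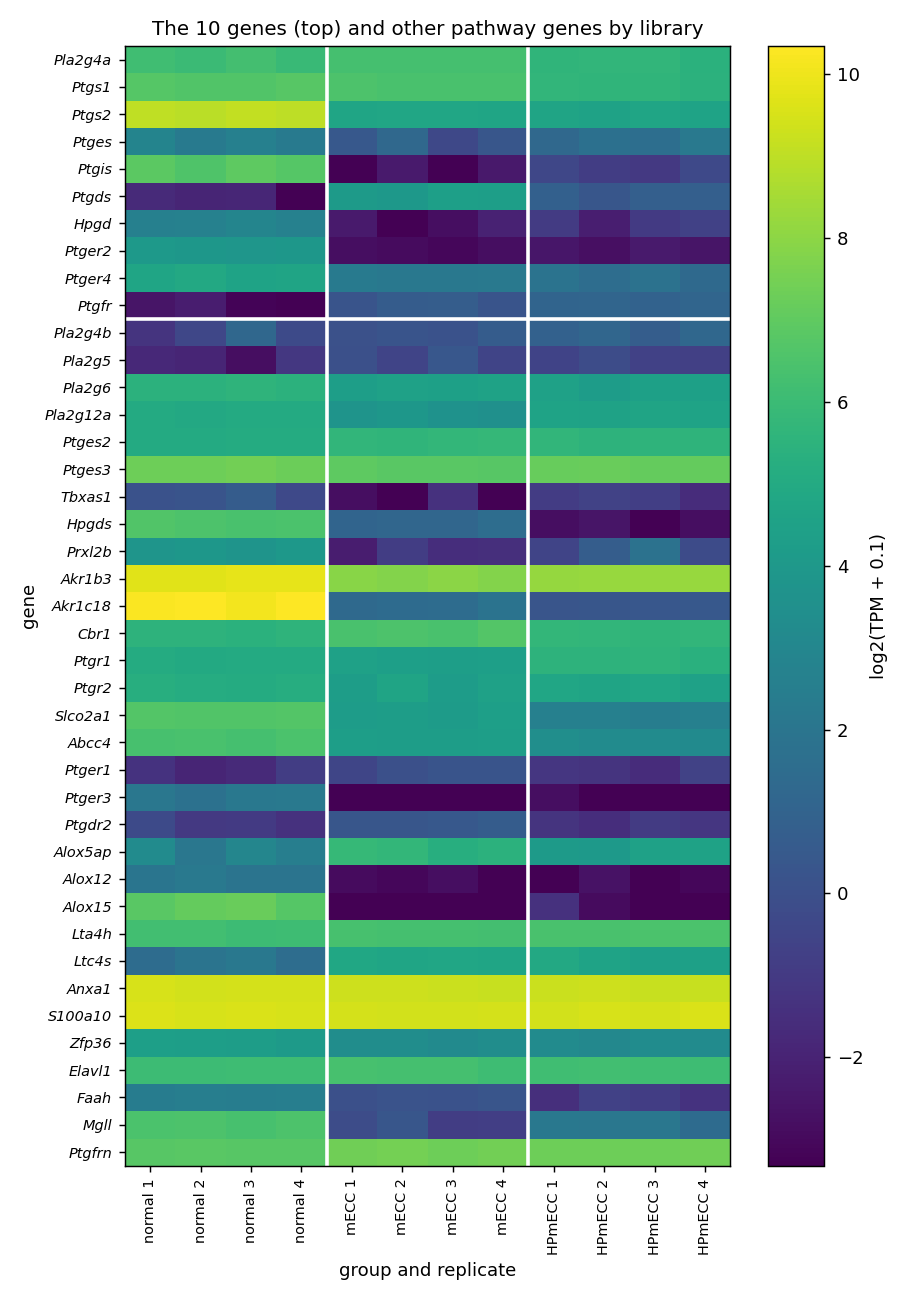
Colour shows log2(TPM + 0.1) in each of the 12 libraries for the 10 genes, above the white line, and for 31 other genes of the pathway that reached 1 TPM in at least 1 library. Rows such as Ptgis, Akr1c18, Hpgds and Alox15 are bright in the 4 normal libraries and dark in the 8 cancer libraries. Ptgs2 is bright in the normal libraries and of intermediate colour in the cancer libraries, at 23.65 to 27.41 TPM.

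Other genes of prostaglandin and related lipid metabolism were more often lower than higher in the lines. Of 37 such genes 33 were tested, and 22 were lower and 8 higher in mECC than in normal cells, where 44.2% and 42.1% of all genes were. In HPmECC 20 were lower and 9 higher, beside 43.3% and 43.0% of all genes. With library totals these counts were 20 and 10 in mECC and 18 and 10 in HPmECC. Their median log2 changes were -0.86 and -0.61. Between the lines 12 were higher and 10 lower in HPmECC, beside 33.8% and 34.5% of all genes, with a median of 0.03.

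Of 8 further terminal synthases 6 were lower in mECC and 6 in HPmECC, against the same 44.2% and 43.3% of all genes. Akr1c18, an aldo-keto reductase that also inactivates progesterone, fell from 852 CPM in normal cells to 1.70 in mECC and 0.717 in HPmECC, at most 172 counts in a line. Hpgds, the hematopoietic prostaglandin D synthase, fell from 152 CPM to 4.08 CPM in mECC (37.2-fold, edgeR adjusted p = 2.47e-21) and to 8 counts in HPmECC. Hpgds thus fell in both lines, the opposite direction to Ptgds, the other D synthase. Of the other E synthases, Ptges2 stood at 28.8 CPM in normal cells, against 35.3 in mECC and 32.5 in HPmECC, and the cytosolic Ptges3 at 202, 121 and 157 CPM. Ptges2 rose 1.23-fold in mECC and Ptges3 fell 1.67-fold there, with edgeR adjusted p-values of 2.91e-06 and 1.39e-13, so neither moved as far as Ptges. Akr1b3, an aldose reductase with prostaglandin F synthase activity, was 4.43-fold lower in mECC and 3.35-fold lower in HPmECC, and remained abundant at 165 and 219 CPM. Prxl2b, another reductase with prostaglandin F synthase activity, went from 495 counts in normal cells to 10 in mECC (ratio 68.3, counting interval 36.8 to 143) and was 12.8-fold lower in HPmECC. Cbr1, which reduces prostaglandin E2 to F2 alpha, was 1.69-fold higher in mECC (edgeR adjusted p = 4.81e-11). In HPmECC it stood at 32.1 CPM, beside 31.8 CPM in normal cells, and was called higher there with library totals alone.

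The 2 transporters of the list were lower in both lines. Slco2a1, which takes prostaglandins up for inactivation, stood at 409 CPM in normal cells, against 63.8 in mECC and 21.0 in HPmECC. Abcc4, which exports prostaglandin E2, stood at 306, 59.1 and 30.6 CPM. HPmECC lay 3.04-fold below mECC for Slco2a1 and 1.93-fold below for Abcc4, with edgeR adjusted p-values of 8.93e-15 and 5.12e-13. Ptgr1, a reductase acting on later metabolites, was 1.81-fold lower in mECC than in normal cells and 1.22-fold higher in HPmECC. Its relative Ptgr2 was 2.06-fold lower in mECC and 1.79-fold lower in HPmECC.

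Of 6 other prostanoid receptors 4 were tested. Ptger3, the EP3 receptor gene that lowers cyclic AMP, fell from 533 counts in normal cells to none in mECC, at least 245-fold lower against a floor of 3 counts over the 4 libraries. In HPmECC it had 1 count (ratio 704, counting interval 126 to 27850). Ptger1 and Ptgdr2 were higher in mECC than in normal cells, at 2.20 against 0.739 CPM and 1.80 against 0.741 CPM. Ptgir, the prostacyclin receptor gene, was higher in HPmECC (1.34 CPM) than in normal cells (0.190) and mECC (0.255), with edgeR adjusted p-values of 4.36e-07 and 1.25e-06.

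Of 5 genes tested in the lipoxygenase and leukotriene branch, 2 were higher and 3 lower in mECC, beside 42.1% and 44.2% of all genes. In HPmECC 3 were higher and 2 lower, beside 43.0% and 43.3% of all genes. Lta4h, among those lower in mECC, was higher with library totals. Alox15, a lipoxygenase, stood at 196 CPM in normal cells, with no count in any mECC library (at least 6663-fold lower) and 4 counts in HPmECC. Alox12 went from 511 counts to 4 in each line. A pair of genes of leukotriene synthesis rose: Alox5ap, the helper protein of 5-lipoxygenase, was 5.56-fold higher in mECC and 2.70-fold in HPmECC, and Ltc4s, the leukotriene C4 synthase gene, 6.46-fold and 6.14-fold. The gene of 5-lipoxygenase itself, Alox5, had 18, 4 and 35 counts in normal cells, mECC and HPmECC and was not tested. Of 7 modulators 6 were lower and 1 higher in each line, where 44.2% of all genes were lower in mECC and 43.3% in HPmECC. At least 2-fold changes were called for 3 of the 7 in each line, against 41.2% and 41.5% of all genes. Library totals changed the calls of Elavl1 and S100a10. The gene that was higher was Ptgfrn, which encodes a partner of the F receptor, at 1.27-fold in mECC and 1.26-fold in HPmECC. Anxa1, whose protein restrains phospholipase activity, was 1.37-fold and 1.34-fold lower. Faah, which breaks down the endocannabinoid anandamide, was 6.83-fold and 17.6-fold lower. Zfp36, whose protein speeds the decay of AU-rich messages, Ptgs2 among them, was 2.30-fold lower in mECC and 2.38-fold lower in HPmECC. Mgll, a lipase that frees arachidonic acid from an endocannabinoid, fell from 195 CPM to 0.80 in mECC and 7.89 in HPmECC. Among 5 phospholipases tested, 1 was higher and 2 lower in mECC, beside 42.1% and 44.2% of all genes. In HPmECC 2 were higher and 2 lower, beside 43.0% and 43.3% of all genes. Pla2g6 was 1.86-fold and 1.78-fold lower and Pla2g12a 2.98-fold and 1.55-fold lower in mECC and HPmECC.

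Sums of leukocyte, smooth muscle, endothelial and mesothelial markers were also lower in both lines, whereas the fibroblast sum given above was higher in both. The 9 leukocyte markers summed to 257 to 276 CPM in normal libraries, 11.03 to 13.92 in mECC and 17.4 to 20.1 in HPmECC, and all 9 were lower in both lines. Ptprc and Adgre1 stood at 0 counts in HPmECC and Tyrobp in both lines. Smooth muscle markers (all 7 lower in both) summed to 2287 to 2758, 51.8 to 54.3 and 189 to 251 CPM. Endothelial markers (of 6 tested, 5 lower in each line and 1 higher in HPmECC) summed to 124 to 140, 3.55 to 4.75 and 9.80 to 11.9 CPM, with Cdh5 and Tek at 0 counts in HPmECC. Mesothelial markers (6 of 6 tested lower in mECC, 5 lower and 1 higher in HPmECC) summed to 475 to 527, 53.8 to 59.3 and 47.6 to 53.1 CPM. The higher one, Bnc1, stood at 41.1 CPM in HPmECC, most of the sum there, against 36.8 in normal cells. Wt1 and Upk1b were at 0 counts in mECC. Upk3b, Upk1b and Lrrn4 were at 0 counts in HPmECC, as was Krt5, which had only 4 counts in normal cells. Epithelial markers were lower too, 10 of 11 in mECC and 11 of 11 in HPmECC. Of 6 mast cell markers, Cpa3, Tpsb2 and Mcpt4 stood at 0 counts in normal cells while Hdc and Kit stood at 53.4 and 11.1 CPM, beside the 152 CPM of Hpgds. The part of these cell types in the levels of the 10 genes was not tested.

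The genes most like each member over the 12 libraries were named by Pearson's r of log2 CPM, which describes mainly the 3 group means. For Ptgs1 they were Sgpl1, Lxn and Lamp1 (r of 0.998, 0.997 and 0.997). For Ptgs2 they were Ifi27l2b, Upk1b and Zdbf2 (each r = 1.00), which had 14.5, 16.9 and 9.81 CPM in normal cells and 0 in both lines. For Ptges they were Hspb8, Pla2g12a and Fam129b (r of 0.988, 0.987 and 0.987). Pla2g4a was most like Tshz3, Fam129a and Parm1 (r of 0.988, 0.987 and 0.985), all highest in mECC and lowest in HPmECC. Closest to Ptgis were Slc43a3, Fam110c and Tead4 (each r = 0.998). Nearest to Hpgd were Polr3e, Isg20 and Jmjd1c (r from 0.992 to 0.995). Closest to Ptgds were Atl2, Syt11 and Chpf2 (each r = 0.995). Nearest to Ptger2 were C77080, Taldo1 and Ajuba (each r = 0.999). Closest to Ptger4 were Fnbp1l, Prkch and Neu1 (r from 0.998 to 0.999).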

How the data were processed

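Per the submitters' processing notes, reads were trimmed with Trim Galore, aligned with STAR 2.6.1a and quantified with RSEM 1.3.1 on GRCm38. Annotation release and strand setting: not given in the sources used here. A deposited table of estimated counts holds RSEM values per gene as whole numbers, so rounding changed nothing. RSEM divides reads that fit several genes by estimated abundance, which makes near-identical copies uncertain. The deposited TPM values, which the authors' RSEM run had scaled by transcript length, served for ratios and alternatives. Of 55385 identifiers 55144 matched a symbol; coordinates and overlaps came from GENCODE M21 (GRCm38).

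The tests used edgeR 4.0.16 (R 4.3.3) with its quasi-likelihood fit, all 12 libraries, 1 coefficient per group, TMM factors, filterByExpr (minimum count 10), Benjamini-Hochberg adjustment over 15283 genes. DESeq2 1.42.0 and limma 3.58.1 were alternatives. The scripts were tested on simulated data with few changed genes, for HPmECC against mECC only. That simulation does not cover the wide changes against normal cells. SE came from the F statistic. Where a group had 20 counts or fewer, summed counts were compared with an exact 95% interval, and 0 counts with a floor of 3; both cover counting error only. No pair of libraries in a group was identical, and all differed beyond sampling noise (chi-square per degree of freedom at least 2.59).

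The members, gene lists and tests were chosen with earlier results of these data known. Named were the 10 genes, other pathway genes at 5 CPM or more in their highest group, and, for members at that level, the 3 genes with the highest correlation (predicted gene models left out). Ptger1, Ptgdr2, Ptgir and Alox5 fell outside that rule and were named after their values were seen, as were the overlapping genes and the marker genes singled out.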

Additional observations from a re-analysis of the deposited data

Results flagged for a closer look

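Pla2g4a was set apart because the lines differed from normal cells in opposite directions: it was higher in mECC (log2 change 0.13) and lower in HPmECC (-0.51), and the test of the difference between the lines gave -0.644 (edgeR adjusted p = 2.80e-10).

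Of 42 sets of 4 libraries checked (each gene in each group, and each ratio in each group), 3 held a library far from the other 3, where chance gives about 1 in 20. The log2 ratio of Ptges to Ptgis was 1.71 in HPmECC replicate 1, and the log2 ratio of Ptger2 to Ptger4 was -0.98 in normal replicate 2 and -5.20 in mECC replicate 3. The first and last rest on genes with few counts in those lines.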

How the results depend on the processing

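Of 646 log2 changes recomputed for the 10 genes under other settings, 637 kept their direction and their side of the threshold, 8 lost the call, 1 gained it and 0 reversed; leaving out any 1 library changed none of the calls. A minimum log2 change of 1 accounts for the 8 lost calls and left 1 gene lower in HPmECC than in mECC in place of 4. With that minimum, 36.1% of all genes were called for mECC against normal cells, 36.4% for HPmECC and 10.8% between the lines. A fit of the 2 lines alone tested 8 of the 10 genes, leaving out Hpgd and Ptger2, and called 3 higher and 4 lower. Requiring 10 CPM in 4 libraries left 6 of the 10 genes to test, so that 1 gene in place of 3 was higher in mECC than in normal cells, 0 in place of 2 in HPmECC (edgeR, where all 6 were lower), and 1 in place of 4 in HPmECC against mECC. Of the 10656 genes tested there, 90.5%, 90.6% and 76.8% were called in these 3 comparisons. The replicate number as a block gave 3 genes higher and 7 lower in mECC, 2 and 8 in HPmECC, and 4 and 4 between the lines, as without it, and 13123 calls over all genes in place of 13184 for mECC against normal cells. The labels do not tie same-numbered libraries together. Their deviations correlated from -0.0273 to 0.08, under the 0.1 used here for pairing, yet 12 of 24 checks found the closest match in the same number, where chance gives about 6, so a weak shared component is possible. Limma on log2(TPM + 1) gave smaller fold changes for genes near 0, such as -6.73 for Ptgis and 1.12 for Ptgfr in mECC, as the added TPM makes it do. Depth limits Ptgis, Hpgd and Ptger2 in the lines and Ptgds and Ptgfr in normal cells, each with at most 61 counts per group.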
